A study of Mus musculus with 4 samples.

Results

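Cytosolic ribosomal protein genes were followed across 4 cell populations sorted from mouse hearts and labelled as macrophages, each measured on 1 array; in the library titled CD74 the macrophage markers were low. Members were the genes whose platform symbol was Rpl or Rps followed by digits, with an optional a, x, y or l, together with Rplp0, Rplp1, Rplp2 and Rpsa. Mitochondrial ribosomal proteins (Mrpl, Mrps) and the S6 kinases (Rps6k) were not members. The rule found 63 of 19505 named genes, 39 of the large and 24 of the small subunit, and every member had 1 probe set. Rplp2 and Rack1 were not analysed here.

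The cells came from the hearts of C57BL/6N mice, aged 15 to 16 weeks, that had undergone transverse aortic constriction (TAC), in which a suture constricts the aortic arch so that the heart pumps against raised pressure. All 4 groups shared this surgery and this strain, and there was no group without surgery. Hearts of 6 mice were mixed before sorting, so each population, named Ccrl2, CD74, CD163 or Trem2 by its title, is 1 pooled sample and 1 library. The source names give sampling at week 8 after surgery and the growth protocol gives week 1. For the library titled CD74 the source name gives CD9, and the growth protocol names a Lyve1 population in place of CD163. With 1 library per population no difference has a replicate check, an error or a test, and having so few arrays limits how precise any of them is.

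The cytosolic ribosome joins a large subunit, which forms peptide bonds, to a small subunit, which reads the messenger RNA. Each holds ribosomal RNA and a set of proteins needed in nearly equal numbers, and their genes are expressed in every cell type. Their messenger RNAs usually begin with a 5′ terminal oligopyrimidine (TOP) tract, a C at the start followed by a run of C and T, through which the kinase mTORC1 and the binding protein LARP1 control their translation together.

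The start sites are shown because this tract is the known common feature of these messenger RNAs. RefSeq start windows of build GRCm38.p6 were found for 50 of the 63 members. A C at the annotated start followed by at least 4 bases that were each C or T was found in 12 of these 50 genes (24.0%), against 3.01% of 27025 genes with such windows, and was not found at the annotated start of the other members. Each line below gives 10 bases before the annotated start and 20 from it, 30 in all, 5′ to 3′, with the tract in capitals. The first 8 are members with a tract that are described below, and the last 2 had none at their annotated start.
Rpl14, chr9:120571507-120571536, plus strand: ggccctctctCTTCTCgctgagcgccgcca
Rpl15, chr14:18270967-18270996, minus strand: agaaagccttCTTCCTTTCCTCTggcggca
Rpl28, chr7:4792955-4792984, plus strand: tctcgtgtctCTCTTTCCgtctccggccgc
Rpl32l, chr10:20208429-20208458, plus strand: aaatgaccagCTTCTTCCTTggtgctgcct
Rps10, chr17:27635225-27635254, minus strand: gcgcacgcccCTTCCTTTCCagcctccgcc
Rps18, chr17:33955646-33955675, minus strand: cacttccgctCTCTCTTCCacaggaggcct
Rps21, chr2:180257369-180257398, plus strand: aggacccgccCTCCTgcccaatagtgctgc
Rps6, chr4:86857348-86857377, minus strand: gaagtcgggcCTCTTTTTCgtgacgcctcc
Rps9, chr7:3704031-3704060, plus strand: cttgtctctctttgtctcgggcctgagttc
Rpl36a, chrX:134585644-134585673, plus strand: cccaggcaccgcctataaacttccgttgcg

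Windows from 250 bases before to 50 after the start were also searched for short motifs on both strands, where matches of different motifs may overlap. The Ets-type motif CCGGAAG was in 42.0% of the 50 genes and in 9.93% of all genes. The YY1-type motif AAGATGGC was in 8.0% and 3.19%, the Sp1-type motif GGGCGG in 58.0% and 38.2%, and TATAAA in 14.0% and 15.7%. Of the 50, 48 lay above background in at least 1 library. In the Trem2 minus CD163 difference, for example, the median was 2.72 log2 units over 12 members with a tract and 2.27 over 36 without, with ranges of 1.17 to 3.63 and -0.55 to 4.14, the lowest being Rpl10l, which was below the ceiling in both of these libraries.

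All levels are the deposited log2 values, in which 1 unit is a 2-fold difference. A background ceiling was set for each library at the 95th percentile of its values for 1500 chemosensory receptor and keratin-associated protein genes, which came to 5.51 in Trem2, 5.67 in Ccrl2, 6.28 in CD163 and 6.53 in CD74. To count as 2-fold higher, a member had to exceed the ceiling of the brighter library and to lie at least 1 log2 unit over the dimmer value, which was raised to its own ceiling where it fell under it. The libraries differed in general: 8144, 7454, 4984 and 3621 genes lay above the ceiling in the same order, and therefore counts over all genes are given beside those of the members. For a library pair, counts and medians over all genes cover the genes above the ceiling in either library. Those over all libraries cover the genes above it in any. Of the 9 macrophage markers measured, all lay above the ceiling in Ccrl2, CD163 and Trem2 with medians of 16.94 to 17.15, while 7 did in the library titled CD74, with a median of 8.62. There Csf1r, the CSF-1 receptor on which macrophages depend, had 9.40 against 18.60 to 19.59 elsewhere, and Fcgr1 and Mertk were below the ceiling. In such bulk samples, fewer cells of a type and less RNA per cell cannot be told apart.

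Most ribosomal protein genes were measured in all 4 libraries, and 54 of the 63 lay above the ceiling in every one. In addition 6 lay above it in at least 1 library, and Rpl3l, Rpl39l and Rps4l lay below it in all. The median over the 39 large subunit genes was 12.33 in Trem2, 12.03 in CD74, 11.44 in Ccrl2 and 9.77 in CD163. Over the 24 small subunit genes it was 11.62, 10.88, 10.68 and 8.65 in the same order. Both subunits thus had their lowest median in CD163 and their highest in Trem2, although after quantile normalization the highest was in CD74, at 13.33 and 12.19. No member reached the top of the scale at 19.93, and the nearest to it was Rpl17 in CD74 at 19.69. Pearson correlations of the levels between libraries, across the 60 measured members, were between 0.927 and 0.966 and describe genes that share their probe sets between arrays.

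**Figure D1:**
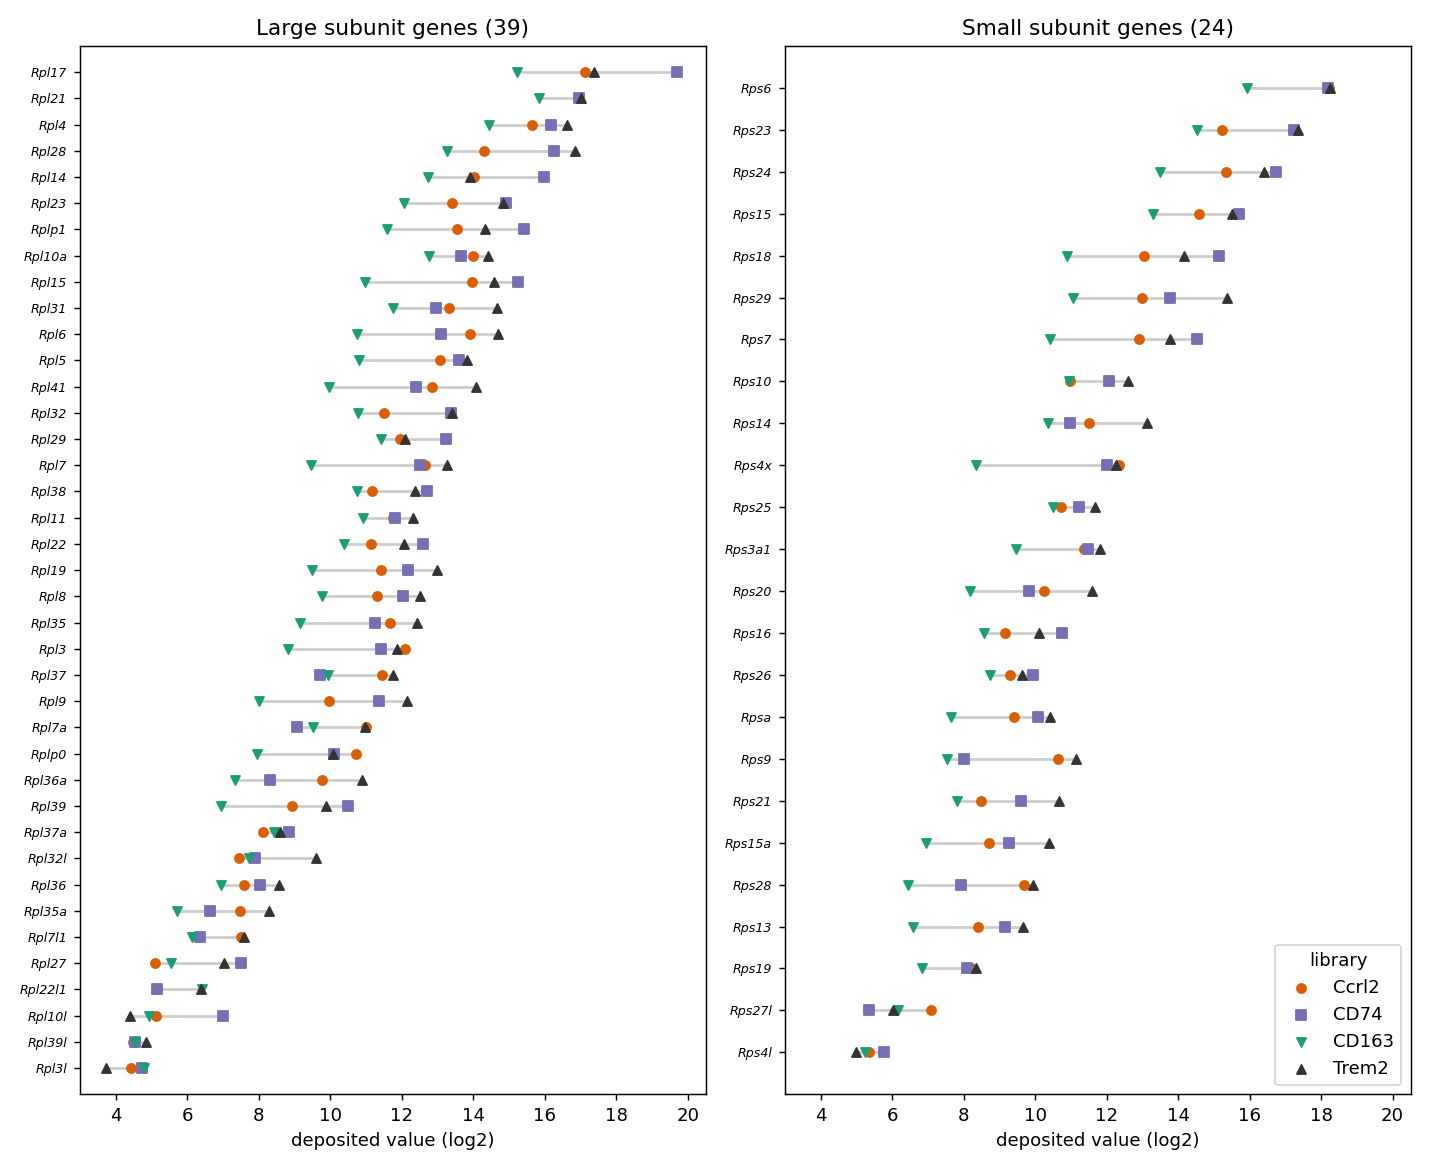
Deposited log2 values (horizontal axis) of each large subunit gene (left) and small subunit gene (right), with 1 symbol per library and a grey line over the range. The CD163 symbol is at the left end of most lines, for 52 of the 60 genes above background in at least 1 library, while the right end is shared between Trem2 and CD74.

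CD163 was the library in which these genes were lowest. Of the 60 members above the ceiling somewhere, 52 had their lowest value there, against 28.4% of 9346 genes. That held for 30 of 37 large and 22 of 23 small subunit genes, and 34 of the 60 lay at least 2-fold below each of the other 3 libraries in CD163, against 3.53% of all genes, a count that became 15 after quantile normalization, against 2.36%. With the CD74 library left out, 54 of 60 were lowest in CD163, against 60.5% of all genes. After quantile normalization of the 4 columns the count among all 4 libraries was 37, against 28.1% of all genes. Without CD74 it was also 37 on that scale, against 46.5%, while 20 were lowest in Ccrl2, against 25.4%. The 8 exceptions were Rpl27, Rpl32l, Rpl37a and Rpl22l1, lowest in Ccrl2, Rpl37, Rpl7a and Rps27l, lowest in CD74, and Rpl10l, lowest in Trem2. Several of these sat near background: Rpl27 was below the ceiling in Ccrl2 and CD163, Rpl22l1 in Ccrl2 and CD74, Rps27l in CD74 and CD163, and Rpl10l in all but CD74.

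The highest value was in Trem2 for 36 members (38.5% of all genes), in CD74 for 18 (14.2%), in Ccrl2 for 5 (32.4%) and in CD163 for 1 (14.9%). This order depended on the scaling. After quantile normalization 53 of the 60 were highest in CD74, against 28.0% of all genes, and 4 in Trem2, against 24.0%. Lowest in CD74 were 3 members on the deposited values, against 48.1% of all genes, and 2 after quantile normalization, against 40.2%. Without the CD74 library, 52 of 60 were highest in Trem2 on the deposited values, against 43.7% of all genes. After quantile normalization the count was 47, against 34.0%, so that Trem2 was the highest of these 3 for most members under both. CD74 was at least 2-fold above each other library for 4 members, against 1.78% of all genes, Trem2 for 9, against 3.85%, and Ccrl2 for 0, against 2.61%. No member lay at least 2-fold below each other library in CD74 (10.2% of all genes), Ccrl2 (0.118%) or Trem2 (0.128%). These counts too depended on the scaling: after quantile normalization CD74 was at least 2-fold above each other library for 44 of the 60, against 8.58% of all genes, Trem2 for 0, against 0.792%, and Ccrl2 at least 2-fold below each for 2, against 0.289%.

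The 6 comparisons of library pairs share libraries and are not independent of each other. The closest pair over all genes was Ccrl2 and Trem2, in which the median gene differed by -0.08, yet the ribosomal protein genes were lower in Ccrl2. Of 59 members measured in either library, 53 had the lower value in Ccrl2, with a median difference of -0.92. At least 2-fold lower in Ccrl2 were 23, namely 12 of 36 large and 11 of 23 small subunit genes, against 7.92% of all genes. Only Rps27l, 1 of the 59, was at least 2-fold higher, against 5.43% of all genes. The medians were -0.80 for the large and -0.97 for the small subunit, with standard deviations among members of 0.72 and 0.81. Quantile normalization gave a median of -0.79 with 21 members at least 2-fold lower, against 4.23% of all genes, and 0 at least 2-fold higher, against 3.83%.

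The largest differences of that pair were in genes of both subunits. Rpl28, a large subunit protein, had 14.29 in Ccrl2, 16.84 in Trem2, 16.27 in CD74 and 13.28 in CD163, a 5.86-fold deficit in Ccrl2 against Trem2. Rps29, a zinc-binding protein of the small subunit, had 12.99, 15.36, 13.76 and 11.05 in the same order of libraries, or 5.17-fold less in Ccrl2 than in Trem2. In both genes Ccrl2 lay closer to CD163 than Trem2 did. Rpl9 and Rps21 were each 4.53-fold lower in Ccrl2 than in Trem2, Rpl32l 4.44-fold and Rps23, a protein of the decoding centre, 4.32-fold. Rps27l had 7.10 in Ccrl2 and 6.02 in Trem2, the other way round, and after quantile normalization its difference of 0.90 log2 units was under 2-fold.

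Among the 3 libraries with high macrophage markers, the members' median difference was widest between Trem2 and CD163. Of 59 measured members, 57 had the higher value in Trem2, with a median difference of 2.74 against 0.69 over all genes. Trem2 was at least 2-fold higher for 53, or 32 of 36 large and 21 of 23 small subunit genes, against 27.6% of all genes, and 0 were at least 2-fold lower, against 6.07%. The medians by subunit were 2.39 and 2.82. After quantile normalization the median over both was 1.49, and 35 members, against 10.0% of all genes, were at least 2-fold higher. Rps29 was 19.8-fold, Rpl9 17.6-fold, Rpl41, which encodes a very short basic peptide, 17.4-fold and Rpl6 15.5-fold higher in Trem2. The values of Rpl9 were 12.16 in Trem2, 11.36 in CD74, 9.98 in Ccrl2 and 8.02 in CD163, and those of Rpl41 14.08, 12.39, 12.85 and 9.96. In both genes the widest gap between neighbouring values was thus the one between CD163 and the other libraries. CD74 lay over Ccrl2 in Rpl9 and under it in Rpl41.

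Ccrl2 exceeded CD163 by a median of 1.55 over 58 members, against 0.69 over all genes. Ccrl2 was at least 2-fold higher for 26 of 35 large and 16 of 23 small subunit genes, against 28.1% of all genes, and 0 were at least 2-fold lower, against 5.03%. Rps4x, the X-linked S4 protein of the small subunit, had the largest difference: it was 12.35 in Ccrl2, 12.27 in Trem2, 0.35 log2 units under the Ccrl2 value in CD74, and 8.35 in CD163, a 16.0-fold excess over CD163. The libraries other than CD163 were thus within 2-fold for this gene. Rpl3, which lies near the peptidyl transferase centre, was 9.65-fold, Rps28 9.45-fold, Rpl7 9.19-fold, Rpl6 8.88-fold and Rps9 8.51-fold higher in Ccrl2 than in CD163. Quantile normalization left a median of 0.60, with 0.26 for the large and 0.63 for the small subunit against 0.19 over all genes, and 16 members at least 2-fold higher, against 9.45% of all genes.

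**Figure D2:**
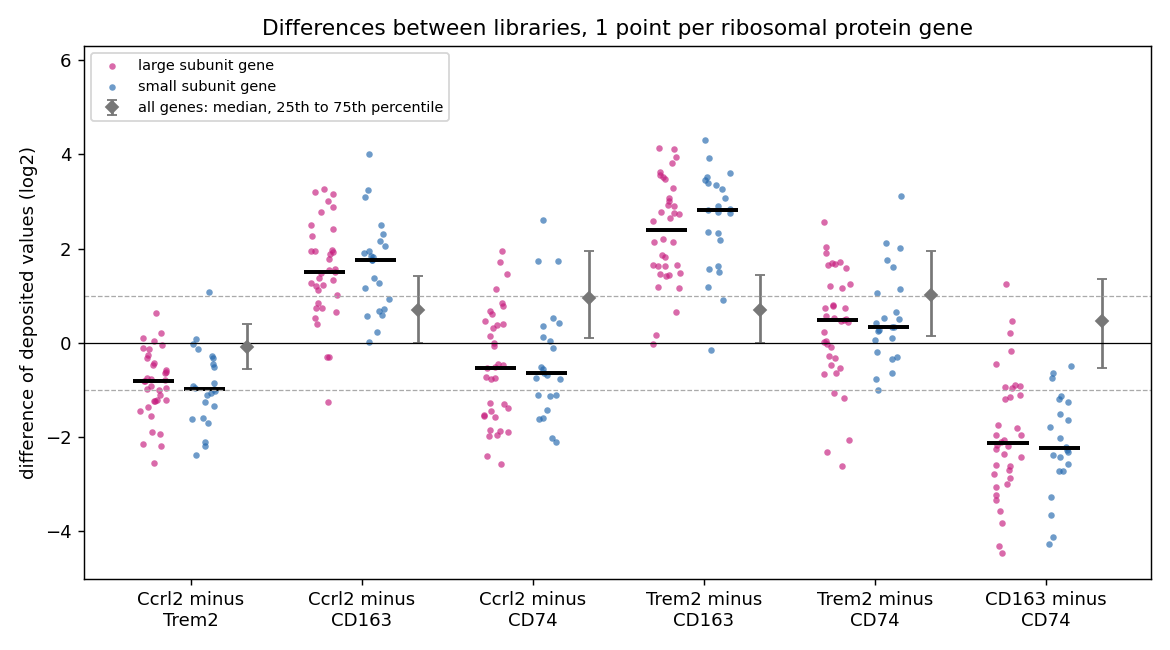
Differences of deposited values between 2 libraries (vertical axis, log2 units) for each ribosomal protein gene above the ceiling in either library, large subunit in pink and small subunit in blue, with a black bar at each median. Grey diamonds and bars give the median and the 25th to 75th percentile over all genes above the ceiling in either library, and dashed lines mark 2-fold. In the Ccrl2 minus CD74 and CD163 minus CD74 columns the members' medians lie below 0 while those of all genes lie above it.

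The comparisons of CD163 and of Ccrl2 with the library titled CD74 ran against the trend of the genes above the ceiling. Most of the 5842 genes above either ceiling were lower in CD74, with a median CD163 minus CD74 difference of 0.47. Over all 19505 genes the library medians were close, at 5.29 in CD74, 5.31 in CD163 and 5.15 in Ccrl2. The ribosomal protein genes were higher in CD74 than in CD163, with a median CD163 minus CD74 difference of -2.17 over 58 members. Higher in CD74 by at least 2-fold were 26 of 36 large and 19 of 22 small subunit genes, against 9.98% of all genes. None of the 58 was at least 2-fold higher in CD163 (0 members, against 19.3% of all genes). Rpl17, a large subunit protein at the exit of the peptide tunnel, had 19.69 in CD74, 17.38 in Trem2, 17.12 in Ccrl2 and 15.23 in CD163, and was 22.0-fold higher in CD74 than in CD163. Rpl15 had 15.26, 14.59, 13.96 and 10.96 in the same order, a 19.7-fold excess of CD74 over CD163, and Rps18 had 15.15, 14.16, 13.05 and 10.89, a 19.2-fold excess. In these 3 genes the order was CD74, Trem2, Ccrl2 and CD163. Rps7 was 17.3-fold and the stalk protein gene Rplp1 14.0-fold higher in CD74 than in CD163. Quantile normalization widened the median to -3.06, with 53 members at least 2-fold higher in CD74, against 21.2% of all genes.

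Ccrl2 and CD74 differed in the same sense. The median over 59 members was -0.55 against 0.96 over all genes, and 38 members were higher in CD74. At least 2-fold higher in CD74 were 14 of 36 large and 8 of 23 small subunit genes, against 7.8% of all genes, and at least 2-fold higher in Ccrl2 were 3 and 2, against 32.0%. Rpl17 was 5.94-fold, Rps18 4.29-fold, Rps23 4.03-fold, Rpl28 3.94-fold, Rpl14 3.86-fold and Rps16 3.05-fold higher in CD74 than in Ccrl2. Higher in Ccrl2 were Rps9 at 6.11-fold, Rpl7a at 3.84-fold, Rps28 at 3.34-fold, Rpl37 at 3.29-fold and Rpl36a at 2.75-fold. After quantile normalization these 5 were no longer 2-fold higher: the difference was 0.83 for Rps9 and 0.02 for Rps28, and it turned sign for Rpl7a (-0.12), Rpl36a (-0.37) and Rpl37 (-0.47). On that scale 51 members were at least 2-fold higher in CD74, against 20.3% of all genes.

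Of the 6 pairs, Trem2 and CD74 was the only one whose median turned sign under quantile normalization. On the deposited values the members were higher in Trem2 by a median of 0.46, against 1.01 over all genes, and after quantile normalization lower by a median of -1.77, against 0.38 over all genes. At least 2-fold higher in Trem2 were 10 of 37 large and 7 of 23 small subunit genes, against 32.6% of all genes, and at least 2-fold lower were 5 and 0, against 7.62%. Rps9, a protein of the messenger RNA entry region, had 11.14 in Trem2, 10.63 in Ccrl2, 8.02 in CD74 and 7.54 in CD163, and was 8.69-fold higher in Trem2 than in CD74. Rpl36a had 10.88, 9.77, 8.31 and 7.35 in that order, a 5.94-fold excess. In Rps9 and Rpl36a CD74 thus lay next to CD163, unlike in Rpl17, which was 4.96-fold lower in Trem2 than in CD74, and Rpl14, at 15.97 in CD74 against 13.92 in Trem2, 14.02 in Ccrl2 and 12.75 in CD163. Rps14 was 4.38-fold, Rpl37 4.08-fold, Rps28 4.03-fold and Rpl7a 3.73-fold higher in Trem2 on the deposited values. After quantile normalization Rps9 (1.18), Rpl36a (0.58) and Rps28 (0.19) kept their sign, while Rps14 (-0.14), Rpl37 (-0.29) and Rpl7a (-0.28) did not.

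Relative to all genes, the order of the libraries was the same on the deposited values and after quantile normalization. The median over the members minus the median over all genes was -0.84 for Ccrl2 minus Trem2, 0.86 for Ccrl2 minus CD163, -1.51 for Ccrl2 minus CD74, 2.05 for Trem2 minus CD163, -0.55 for Trem2 minus CD74 and -2.65 for CD163 minus CD74. After quantile normalization these were -0.78, 0.41, -2.93, 1.29, -2.16 and -3.28. Median centring shifts all genes of a library alike, so it could not change this measure and is no further check. On this measure CD74 stood first, followed by Trem2, Ccrl2 and CD163, for each subunit as for both, although the large subunit's excess of Ccrl2 over CD163 was 0.07 after quantile normalization. Against the 1952 genes with the highest mean level, at 7.97 or more, which held 52 of the members, the signs were the same as against all genes, with -1.60 for Trem2 minus CD74 and 0.31 for Ccrl2 minus CD163 on the deposited values.

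**Figure D3:**
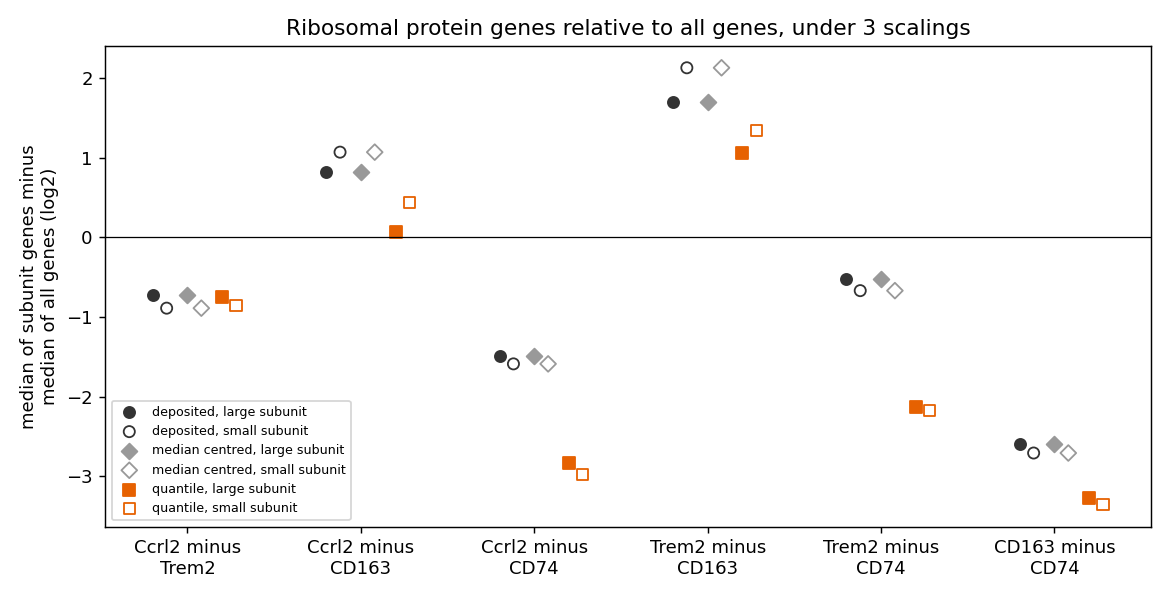
Median difference over large subunit genes (filled symbols) and small subunit genes (open symbols) minus the median difference over all genes (vertical axis, log2 units) for each library pair, on the deposited values, after median centring and after quantile normalization. For every pair all symbols lie on the same side of 0, with values from -3.36 for CD163 minus CD74 to 2.13 for Trem2 minus CD163. Median centring cannot change this measure, so its symbols repeat those of the deposited values.

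By role, the stalk and the 5S particle proteins were lowest in CD163 on the deposited values. The stalk recruits the elongation factors, and its members were Rplp1 and Rplp0. Rplp1 had 15.41 in CD74, 14.34 in Trem2, 13.56 in Ccrl2 and 11.60 in CD163, while Rplp0, the stalk base, had 10.71 in Ccrl2, 10.10 in CD74, 10.08 in Trem2 and 7.94 in CD163. The top library thus differed between Rplp1 and Rplp0 on the deposited values, but after quantile normalization it was CD74 for both, at 17.16 and 11.40. The lowest was CD163 for both on either scale. Rpl5 and Rpl11, which form a particle with 5S ribosomal RNA and can bind the p53 regulator MDM2, had unequal ranges. Rpl5 spanned 3.01 log2 units, from 10.81 in CD163 to 13.82 in Trem2, and Rpl11 spanned 1.41, from 10.92 in CD163 to 12.33 in Trem2. Mdm2 itself had 11.68 in Trem2, 11.24 in Ccrl2, 9.40 in CD74 and 8.30 in CD163.

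Rps6, the small subunit protein that S6 kinases phosphorylate, had values of 18.26 in Trem2, 18.23 in Ccrl2, 18.20 in CD74 and 15.92 in CD163, so that CD163 stood apart from the other 3 libraries, while after quantile normalization CD74 was highest at 19.37. Rpl21 had the same shape at 17.01, 16.96, 16.97 and 15.83. Rpsa, also known as a precursor of a laminin receptor, had 10.42 in Trem2, 10.09 in CD74, 9.41 in Ccrl2 and 7.66 in CD163.

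The narrowest ranges over the 4 libraries were in Rpl37a (0.74 log2 units), Rpl21 (1.18), Rpl22l1 (1.26), Rpl11 (1.41) and Rpl7l1 (1.47) of the large subunit and in Rps25 (1.18), Rps26 (1.20), Rps19 (1.51), Rps10 (1.64) and Rps27l (1.74) of the small subunit. Rpl37a had 8.86 in CD74, 8.59 in Trem2, 8.42 in CD163 and 8.12 in Ccrl2, within 2-fold throughout. Rpl22l1, Rpl7l1 and Rps27l were below the ceiling in some libraries, where a range is not well measured. The widest ranges were in Rpl17 (4.46), Rpl15 (4.30), Rpl9 (4.14), Rpl41 (4.12) and Rpl6 (3.95), and in Rps29 (4.31), Rps18 (4.26), Rps7 (4.11), Rps9 (3.60) and Rps4x, whose range is the 16.0-fold difference given above. In all of these 10 the lowest library was CD163. These ranges compare each gene with itself between libraries and not levels between genes.

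Several members have a paralog of restricted expression, and several of these were below the ceiling. Rpl3l, the form of Rpl3 found in heart and skeletal muscle, lay between 3.73 and 4.78, below the ceiling in every library, while Rpl3 had 12.08 in Ccrl2, 11.88 in Trem2, 11.41 in CD74 and 8.81 in CD163. Of 7 cardiomyocyte markers, however, 7 lay above the ceiling in Ccrl2, 6 in CD163, 6 in Trem2 and 4 in CD74. Myl2, a ventricular myosin light chain, had 9.64 to 13.39, while Ryr2 was below the ceiling in CD74, CD163 and Trem2. Rpl39l and Rps4l were below the ceiling throughout, at 4.49 to 4.85 and 4.98 to 5.78, while Rpl39 had 6.94 to 10.50 and Rps4x 8.35 to 12.35. Rpl10l, a germline paralog of Rpl10, was above its ceiling only in CD74, at 7.00 against 6.53. Rpl22l1 reached 6.41 in CD163 and 6.38 in Trem2 and was below the ceiling in the other libraries, whereas Rpl22, its partner, had 12.59 in CD74, 12.06 in Trem2, 11.14 in Ccrl2 and 10.40 in CD163. Rpl7l1 had 7.60 in Trem2 and 7.50 in Ccrl2 and was below the ceiling in CD74 and CD163. Rps27l, a gene known to respond to p53, was above it at 7.10 in Ccrl2 and 6.02 in Trem2. Rpl36al, which the rule left out, was above the ceiling only in Ccrl2, at 6.15. Ribosomal protein genes have many near-identical processed pseudogenes and paralogs, and how far the probe sets separate them is not given in the sources used here.

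Other genes of protein synthesis followed the members in part. All 19 translation factors and other TOP genes with a probe set were above the ceiling in every library. Lower in CD163 than in Trem2 by at least 2-fold were 14, against 27.6% of all genes, with a median Trem2 minus CD163 difference of 1.81. After quantile normalization these were 7, with 2 the other way, against 10.0% and 15.0% of all genes, and a median of 0.60. Lower in CD163 than in CD74 were 9, against 9.98% of all genes, with a median CD163 minus CD74 difference of -0.72. After quantile normalization 14 were lower, against 21.2% of all genes, with a median of -1.60. Between Ccrl2 and Trem2 their median difference was 0.00, with 2 at least 2-fold lower in Ccrl2, against 7.92% of all genes, beside -0.92 for the ribosomal protein genes. Eef1b2, an exchange factor of translation elongation, had 13.31 in CD74, 11.92 in Ccrl2, 11.79 in Trem2 and 9.13 in CD163. Btf3, a subunit of the nascent chain complex, had 13.25 in Trem2, 11.40 in Ccrl2, 11.05 in CD74 and 10.66 in CD163, and Eif3k had 9.43 in Trem2 against 7.62 to 8.30 elsewhere. Eef1a1 was at the top of the scale in all 4 libraries, and no difference can be read. Fau, whose product is cut into a ubiquitin-like protein and a small subunit protein, had 11.81 in Trem2, 10.78 in Ccrl2, 10.18 in CD74 and 9.15 in CD163.

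Of 36 genes listed for ribosome production, 17 to 29 lay above the ceiling, with list medians of 6.40 to 6.61. The list held assembly genes together with Myc and Mdm2, which encode regulators. At least 2-fold higher in Trem2 than in CD163 were 8 of 29 and lower 0, a share of 27.6% that equals the 27.6% of all genes. Myc and Mdm2 were among the 8, at 5.25 and 3.38 log2 units. Of the 29 measured in Ccrl2 or Trem2, 2 were higher in Ccrl2 and 1, Myc, was lower, against 5.43% and 7.92% of all genes. Myc, a transcription factor that drives ribosome production, had 12.43 in Trem2, 10.34 in Ccrl2, 8.49 in CD74 and 7.18 in CD163. The nucleolar protein genes Ncl and Fbl were lowest in CD163, at 7.49 and 7.55 against 9.78 to 10.06 and 8.96 to 10.35 elsewhere. Of 76 mitochondrial ribosomal protein genes, 12 to 42 lay above the ceiling, and of the 42 measured in Trem2 or CD163, 3 were at least 2-fold higher and 1 lower in Trem2, against 27.6% and 6.07% of all genes, with a median difference of 0.42, under the 0.69 of all genes. Of the 14 genes of TOP and mTORC1 control, 3 lay above the ceiling in CD74. At least 2-fold higher in Trem2 than in CD74 were 5 of 13 and lower 0, against 32.6% and 7.62% of all genes. After quantile normalization the counts were 2 and 1, against 10.6% and 18.1%. Larp1, which binds the TOP tract, had 9.46 in Trem2, 8.22 in Ccrl2, 8.11 in CD163 and 7.46 in CD74, and Rheb, an activator of mTORC1, had 8.90, 8.82, 7.63 and 6.23, the last below the ceiling.

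Markers of other cell types moved between the same libraries, and their part in the values above was not tested. All 9 T and NK cell markers measured lay above the ceiling in CD74, 6 in Trem2, 1 in CD163 and 0 in Ccrl2, with list medians of 9.50, 6.10, 5.15 and 4.56 and a highest level of 13.01 for Gzma in CD74. The T cell receptor chains Cd3d, Cd3e and Cd3g were below the ceiling in all but CD74. All 6 neutrophil markers lay above the ceiling in Trem2, 4 in Ccrl2, 4 in CD74 and 1 in CD163, with medians of 12.86, 6.29, 6.82 and 4.92, so that Trem2 exceeded both Ccrl2 and CD163 in them. The 4 B cell markers had medians of 9.21 in Trem2, 7.02 in Ccrl2, 6.75 in CD74 and 4.89 in CD163, where only Cd79a passed the ceiling. CD163 thus had the lowest medians of B cell and neutrophil markers, both under its ceiling of 6.28, while the T and NK cell median was lowest in Ccrl2. Fibroblast markers had medians of 8.48 in Ccrl2, 7.72 in Trem2, 6.50 in CD74 and 6.17 in CD163, endothelial markers 7.84, 8.66, 5.44 and 6.59, and cardiomyocyte markers 9.74, 9.81, 8.54 and 8.01.

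**Figure D4:**
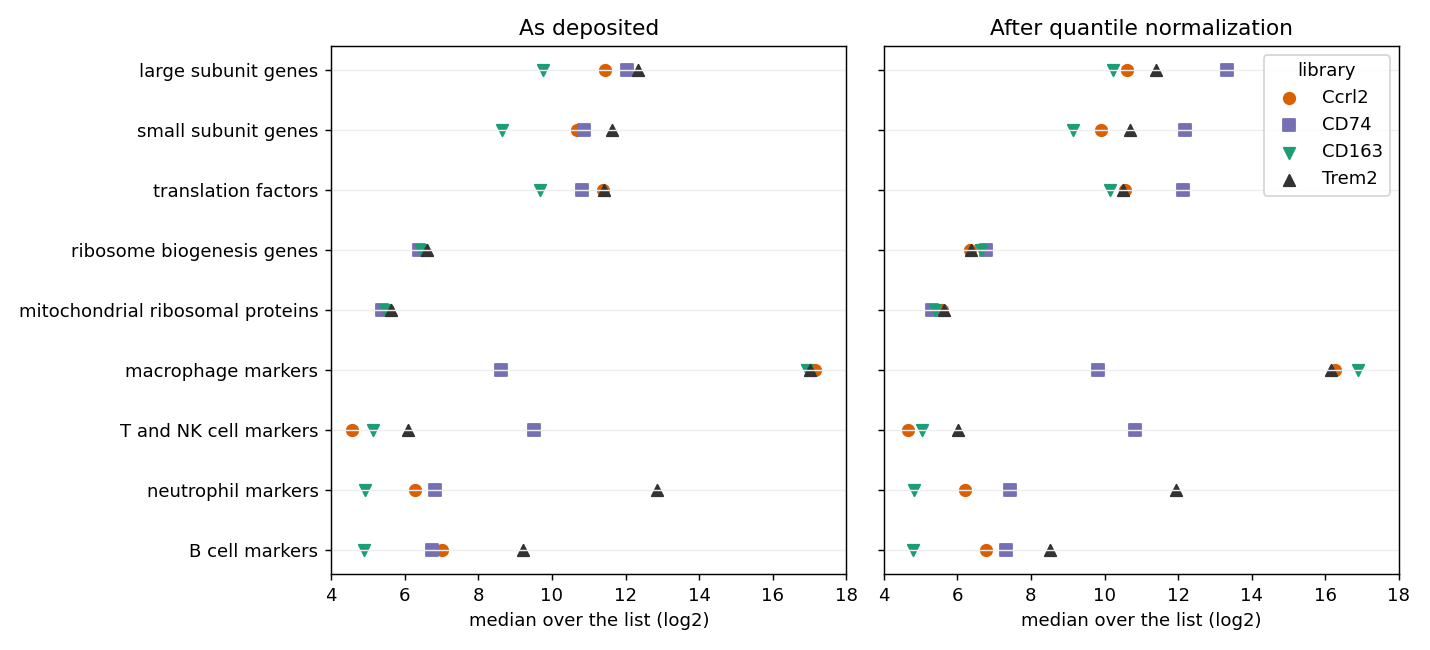
Median log2 value over each gene list (horizontal axis) in the 4 libraries, as deposited (left) and after quantile normalization (right). The ribosomal protein rows are lowest in CD163 on both sides and highest in Trem2 on the left but in CD74 on the right, and the macrophage row is lowest and the T and NK cell row highest in CD74 on both sides.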

How the data were processed

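Levels came from 4 Clariom S mouse arrays. Per the labels' protocols, the authors amplified, labelled and hybridised total RNA and summarised the arrays by robust multichip average, with Affymetrix Expression Console listed among the tools in the submitters' processing notes. No further setting was given. The authors deposited log2 values, as read from their range of 2.97 to 19.93. Of 28846 probe sets, 22206 were gene probe sets, and 19572 had 1 platform symbol, 0 several and 2634 none. The probe set with the highest mean was kept, giving 19505 genes. All 63 members matched RefSeq by gene number and symbol.

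Medians used deposited differences of genes above the ceiling in either library (in at least 1 of the 4 for the tract comparison), and calls set dim values at the ceiling. Genes named were the 3 largest called differences per pair, direction and subunit, the 5 widest and 5 narrowest ranges per subunit, stalk and paralog genes, and some chosen for their role after values were seen. Members and lists were chosen with earlier results of these data known. Alternatives were quantile normalization, median centring, other ceilings, averaged probe sets, and leaving out saturated genes or paralogs. The calling code was checked on simulated data in which all libraries shared the same scale, unlike these arrays. Python 3.11.15, numpy 2.4.6 and pandas 2.3.3 were used.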

Additional observations from a re-analysis of the deposited data

How the results depend on the processing

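Of 260 values recomputed under 8 alternatives, 228 kept their direction and lay within 1.5 times the value reported, 30 moved by more and 2 reversed, and the cause was not tested. Under quantile normalization alone, 15 values were kept, 22 moved and 2 reversed. The 2 that reversed were the Trem2 minus CD74 medians under quantile normalization, at -1.75 (large subunit) and -1.80 (small). Quantile normalization also moved the medians to 0.26 and 0.63 for Ccrl2 minus CD163, -2.48 and -2.62 for Ccrl2 minus CD74, and 1.26 and 1.54 for Trem2 minus CD163 (large and small subunit). Under it, members at least 2-fold higher for Ccrl2 minus CD163 numbered 10 and 6, against 9.45% of all genes, and lower 2 and 1, against 13.3%. For Ccrl2 minus CD74 higher were 0 and 0, against 12.1%, and lower 31 and 20, against 20.3%. For Trem2 minus CD163, 19 large subunit genes were higher, against 10.0%. For Trem2 minus CD74 higher were 0 and 1, against 10.6%, and lower 27 and 17, against 18.1%. For Ccrl2 minus Trem2, 0 small subunit genes were higher, against 3.83%, and the count was also 0 without paralogs. Members highest in CD74 under quantile normalization were 53, against 28.0% of all genes, and in Trem2 4, against 24.0%. Median centring gave 5 large subunit genes higher and 5 small subunit genes lower for Ccrl2 minus CD74. Without a ceiling, 1 large subunit gene was higher for CD163 minus CD74, 1 lower for Ccrl2 minus CD163 and 1 lower for Trem2 minus CD163, and with the library median as ceiling the first and second of these counts were also 1. Of the 228, 36 each came from averaging probe sets and leaving out saturated genes, which could move nothing because every member has 1 probe set and 0 were saturated. The counts of members by lowest and highest library under other scalings and without CD74 were added after seeing the data. No paired analysis was possible because each population has 1 library. Signal over background limits the members below the ceiling, and 3621 genes passed it in CD74.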
